A study of Homo sapiens with 12 samples.

Results

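The enzymes of the glycerol-3-phosphate shuttle and the malate-aspartate shuttle were followed in SW480, a line established from a human colon adenocarcinoma, by RNA sequencing. The 7 genes were chosen by symbol: GPD1L, GPD1, GPD2, MDH1, MDH2, GOT1 and GOT2. All 7 were listed in both deposited tables, among 13554 genes in the knockdown table and 13583 in the overexpression table. Of the 7, 6 reached a mean of 1 FPKM in each table and were tested; GPD1 did not. FPKM counts fragments relative to transcript length and library size, so levels of different genes within a library can be set side by side per length.

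The labels describe 4 stable SW480 groups of 3 libraries each. The shGPD1L cells carried a short hairpin RNA against GPD1L and the shNC cells a control hairpin; the OE cells overexpressed GPD1L and the Vector cells carried its control vector. The genotype labels of replicates 2 and 3 read shGPD2L, shGPD3L, GPD2L and GPD3L where the titles and the design text give GPD1L; this was taken as a numbering slip, and the titles were used. Each manipulation was thus a single line against a single control line, and differences between lines and effects of the GPD1L level cannot be told apart. Whether the 3 libraries of each line were grown separately is not stated, and the p-values rest on a spread that may be purely technical. In such bulk samples, fewer cells expressing a gene and less RNA per cell cannot be told apart.

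Both shuttles move reducing equivalents of cytosolic NADH into mitochondria, because NADH itself does not cross the inner mitochondrial membrane. In the glycerol-3-phosphate shuttle a cytosolic dehydrogenase uses NADH to turn dihydroxyacetone phosphate into glycerol-3-phosphate, and GPD2 on the inner membrane oxidises it back and passes the electrons to ubiquinone. In the malate-aspartate shuttle MDH1 makes malate from oxaloacetate in the cytosol, MDH2 reverses this in the matrix, and the aspartate aminotransferases GOT1 (cytosol) and GOT2 (matrix) carry the carbon back as aspartate. Glycerol-3-phosphate is also the backbone of glycerolipids, and aspartate is used to make asparagine, arginine and nucleotides.

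GPD1L and GPD1 are related cytosolic enzymes, so the manipulated gene could in principle share reads with its relative. In the GENCODE 29 transcripts their coding sequences were identical at 71.0% of aligned positions, and the longest run they shared was 17 bases. That run is shown in capitals, with its surroundings, as the longest exact match. How hard reads of the 2 genes are to separate was not computed, and the parts outside the coding sequences were not compared. Coding positions are counted from the first base of the start codon, 456 to 522 in GPD1L and 450 to 516 in GPD1.
GPD1L: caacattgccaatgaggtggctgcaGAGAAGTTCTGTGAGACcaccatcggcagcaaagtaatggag
GPD1: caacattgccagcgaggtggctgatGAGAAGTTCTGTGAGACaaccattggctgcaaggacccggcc
The cytosolic and mitochondrial isoenzymes were further apart, at 49.95% identity and a longest shared run of 12 bases for MDH1 and MDH2, and 55.2% and 15 bases for GOT1 and GOT2. Of 2413 words of 50 bases in the GOT2 transcript, 20 also occurred in the pseudogene GOT2P2 and 14 in GOT2P3, neither of which was listed in either table.

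On GRCh38, GPD1L lies at chr3:32105689-32168713, GPD1 at chr12:50103819-50111319, GPD2 at chr2:156435290-156613735, MDH1 at chr2:63588609-63607197 and MDH2 at chr7:76048051-76067508, all on the plus strand. GOT1 lies at chr10:99396870-99431569 and GOT2 at chr16:58707131-58734357, both on the minus strand. MDH1 overlaps WDPCP on the opposite strand, and strandedness is not stated, but WDPCP was listed at group means of only 0.756 to 1.04 FPKM. The genes overlapping GPD1L, GOT1 and GOT2 on the opposite strand were in neither table.

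The malate-aspartate enzymes were more abundant than the glycerol-3-phosphate enzymes in every group. In shNC the order was MDH2 (127.8 ± 5.04 FPKM, SD, n = 3), GOT2 (84.5 ± 5.03), MDH1 (83.0 ± 10.2), GOT1 (28.6 ± 0.678), GPD1L (8.60 ± 0.550), GPD2 (8.21 ± 0.926) and GPD1 (0.748 ± 0.176). The libraries of GOT2 and MDH1 overlapped in that group, and so did those of GPD1L and GPD2. In Vector the order was MDH1 (98.2 ± 1.95 FPKM, SD, n = 3), MDH2 (95.8 ± 4.32), GOT2 (68.8 ± 1.498), GOT1 (49.1 ± 0.0734), GPD1L (10.7 ± 0.449), GPD2 (8.30 ± 0.604) and GPD1 (0.458 ± 0.0439). There only MDH1 and MDH2 overlapped. In shGPD1L, GPD2 stood above GPD1L without overlap and the rest of the order was that of shNC; in OE the order was that of Vector, with the libraries of GOT2 and GOT1 now overlapping as well. Separate normalization of the tables is possible, so shNC and Vector values stand side by side without a test; MDH2 and GOT2 were listed higher in shNC, and MDH1 and GOT1 higher in Vector.

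**Figure D1:**
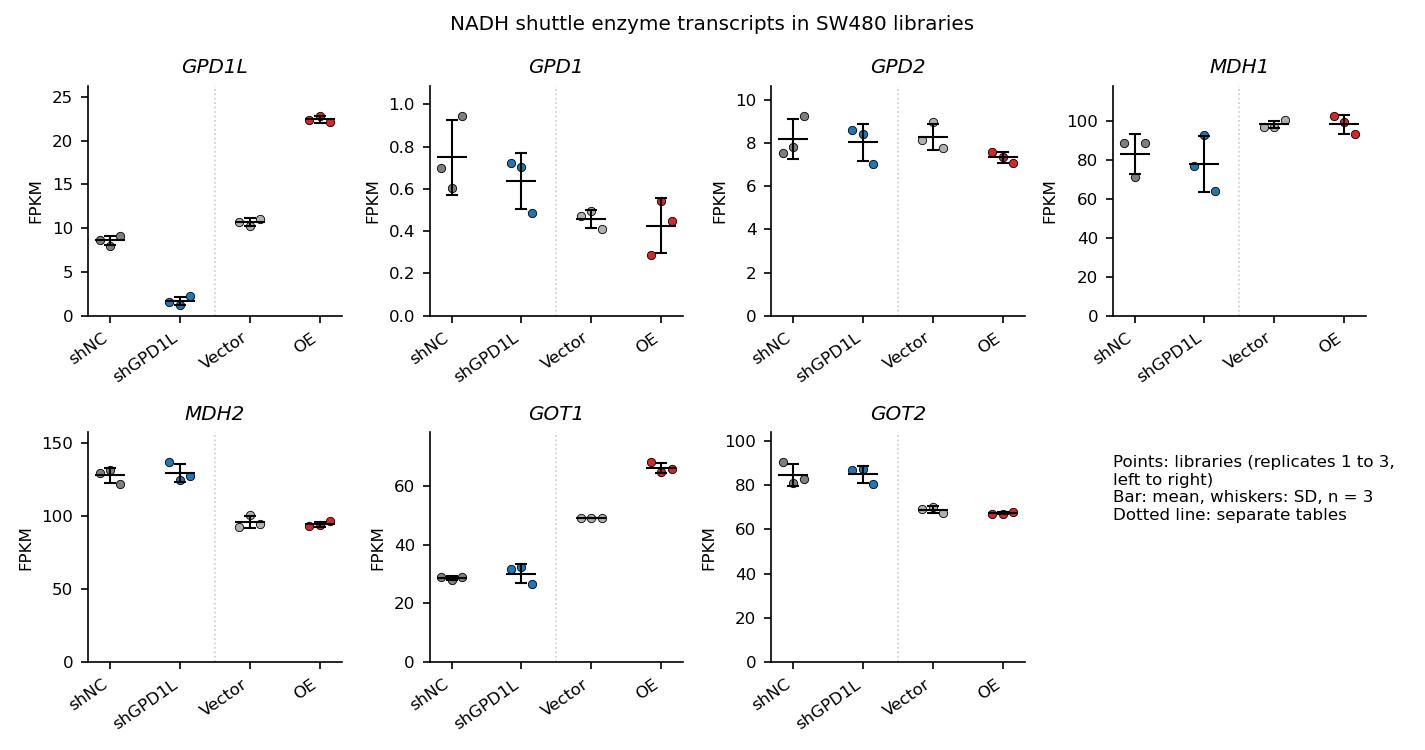
FPKM of each shuttle enzyme (vertical axis, from 0) in the 12 libraries by group (horizontal axis); points are libraries, bars the mean and whiskers the SD of 3 libraries. GPD1L separates both pairs of groups, GOT1 separates OE (64.5 to 67.9) from Vector (49.0 to 49.2), and MDH1, MDH2 and GOT2 overlap within each pair.

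The first comparison asked what happened to the shuttle enzymes when GPD1L was lowered: GPD1L fell, and none of the 5 other enzymes tested was called. GPD1L was at 8.68, 8.01 and 9.10 FPKM in shNC and at 1.55, 1.26 and 2.23 FPKM in shGPD1L. All shGPD1L libraries lay below all shNC libraries, and the mean in shGPD1L was 0.195 of that in shNC. The log2 change of FPKM + 1, the scale of all changes below, was -1.85 (SE 0.14, limma adjusted p = 0.00675). Of the 6 enzymes tested, 1 was called, in a comparison where 0.592% of 12156 genes were called at an adjusted p under 0.05 and 0.477% were called lower. Without shNC replicate 1, 2 or 3 the GPD1L call was lost, at limma adjusted p = 0.0683, 0.0527 and 0.0839, with log2 changes of -1.85, -1.90 and -1.82.

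GPD1, the other cytosolic NADH-linked enzyme, stayed under 1 FPKM. It was listed at 0.696, 0.604 and 0.945 FPKM in shNC and at 0.724, 0.701 and 0.486 FPKM in shGPD1L. The groups overlapped. With the filter on low values removed, its log2 change was -0.09 (95% interval -0.35 to 0.17, limma adjusted p = 0.729). GPD1L made up 92.1% ± 1.28 of the summed FPKM of the 2 cytosolic enzymes in shNC and 71.5% ± 9.34 in shGPD1L (SD, n = 3), so GPD1L was the more abundant of the 2 transcripts in every library, at 1.80 to 4.58 times GPD1 in shGPD1L.

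GPD2, the membrane enzyme that uses the glycerol-3-phosphate, was at 7.53, 7.83 and 9.26 FPKM in shNC and at 8.62, 8.43 and 7.04 FPKM in shGPD1L. These libraries overlapped, and the log2 change was -0.03 (95% interval -0.28 to 0.23). Because GPD1L fell and GPD2 was not called, the order of the 2 changed: the GPD2 to GPD1L ratio was 0.867, 0.978 and 1.02 in shNC and 5.55, 6.68 and 3.16 in shGPD1L. The log2 ratio was higher by 2.36 with no overlap of libraries, and an exact permutation test (two-sided, 3 against 3) gave p = 0.1, the smallest it can give. The change of this ratio contains the fall of GPD1L itself and is no separate result.

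The malate dehydrogenases overlapped between the groups. MDH1 was at 88.9, 71.3 and 88.9 FPKM in shNC and at 77.1, 92.7 and 64.1 FPKM in shGPD1L, with a log2 change of -0.10 (95% interval -0.44 to 0.24). This was the widest interval of the 6 enzymes other than GPD1L measured here, and the highest and the lowest MDH1 values of the 6 libraries were both in shGPD1L. MDH2 was at 129.7, 131.5 and 122.0 FPKM in shNC and at 136.7, 124.7 and 127.5 FPKM in shGPD1L, with a log2 change of 0.02 (95% interval -0.16 to 0.20).

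The aminotransferases overlapped as well. GOT1 was at 28.9, 27.8 and 28.997 FPKM in shNC and at 31.7, 32.3 and 26.5 FPKM in shGPD1L. Replicates 1 and 2 of shGPD1L were above all shNC libraries and replicate 3 was below them, and the log2 change was 0.07 (95% interval -0.15 to 0.29, limma adjusted p = 0.754). Without shGPD1L replicate 3 the change was 0.16 (limma adjusted p = 0.170). GOT2 was at 90.2, 80.7 and 82.5 FPKM in shNC and at 86.8, 87.3 and 80.3 FPKM in shGPD1L, with a log2 change of 0.01 (95% interval -0.18 to 0.19). The intervals of GPD2, MDH1, MDH2, GOT1 and GOT2 bound the changes these libraries allow, and they do not show that the levels were equal. Over all genes, the libraries did not overlap for 24.7% of those tested, and among the 6 enzymes tested only those of GPD1L did not.

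The libraries of the knockdown were not equally alike. On the first principal component of the table, shGPD1L replicate 3 was at 0.264 log2 units per gene and the 5 other libraries were between -0.110 and 0.00289. The 10 epithelial markers chosen for the line were listed at summed levels of 5169 to 5543 FPKM in shNC and 4324 to 4564 in shGPD1L for the 9 listed there, and at 4000 to 4117 in Vector and 4318 to 4453 in OE for all 10. Of 9 markers of other cell types, 7 were listed in neither table and the other 2, CD14 and COL1A1, summed to between 0.949 and 3.55 FPKM. The epithelial sums, of which KRT8, KRT18 and KRT19 make up most, did not overlap between the groups of either comparison. In the knockdown none of the 9 markers tested was called by limma, and 4 had an unadjusted p under 0.05, where 16.3% of all genes did. In the overexpression all 9 were called, where 22.4% of all genes were. KRT8 (0.15), KRT18 (0.21) and KRT19 (0.30) were higher, while CDX1 (-0.70), CDX2 (-0.59), VIL1 (-0.52), CDH1 (-0.31), LGALS4 (-0.28) and EPCAM (-0.21) were lower. The part of these markers in the results was not tested. Summed FPKM per library ran from 421714 to 444794, with unknown read numbers. It was 437051 to 438967 in Vector and 421714 to 423368 in OE, without overlap, and it overlapped between shNC and shGPD1L.

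The second comparison asked what happened when GPD1L was raised: GPD1L and GOT1 rose, and the 4 other enzymes tested were not called. GPD1L was at 10.7, 10.2 and 11.1 FPKM in Vector and at 22.3, 22.8 and 22.1 FPKM in OE. The groups did not overlap, the mean in OE was 2.10 times that in Vector, and the log2 change was 1.01 (SE 0.052, limma adjusted p = 4.74e-05). Transgene and endogenous transcripts were counted together. The labels do not say whether the insert held more than the coding part, which is 1056 of the 4060 bases (26.0%) of the annotated transcript, and a value per length depends on it.

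GOT1, the cytosolic aspartate aminotransferase, was the one shuttle enzyme called besides the manipulated gene. It was at 49.1, 49.2 and 49.0 FPKM in Vector and at 67.9, 64.5 and 65.6 FPKM in OE. Every OE library lay above every Vector library, and the mean of 66.0 ± 1.74 FPKM in OE (SD, n = 3) was 1.34 times the 49.1 ± 0.0734 of Vector. The log2 change was 0.42 (SE 0.041, 95% interval 0.33 to 0.51, limma adjusted p = 0.000594). An exact permutation test of GOT1 alone gave a two-sided p = 0.1, below which 3 against 3 cannot go. The call held in 15 of 15 alternative settings, with log2 changes of 0.39 to 0.47 and adjusted p-values of 0.000379 to 0.00646.

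These 2 calls among 6 enzymes stand in a comparison with many calls. Of 12208 genes tested, 22.4% were called, 12.2% higher and 10.3% lower, and the libraries did not overlap for 41.8%. Of all calls 54.2% were higher, against 71.4% when libraries were scaled to equal totals and 43.6% with median-of-ratios scaling. GPD1L and GOT1 were called higher under each of these scalings.

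GOT2, the mitochondrial partner of GOT1, was at 69.3, 70.1 and 67.2 FPKM in Vector and at 66.8, 67.0 and 67.6 FPKM in OE. The libraries overlapped, and the log2 change was -0.04 (95% interval -0.12 to 0.05, limma adjusted p = 0.55). Within each library the ratio of GOT1 to GOT2 was 0.710, 0.702 and 0.730 in Vector and 1.02, 0.963 and 0.971 in OE, so the cytosolic transcript was close to the level of the mitochondrial one in OE. The log2 ratio was higher by 0.46 with no overlap (exact two-sided permutation p = 0.1, the smallest possible), and by 0.44 to 0.48 when any 1 library was left out. This change contains the rise of GOT1 itself and is no separate result. In the knockdown the same ratio was 0.320, 0.344 and 0.351 in shNC and 0.365, 0.370 and 0.330 in shGPD1L, an overlap, with a log2 difference of 0.07 (exact two-sided permutation p = 0.4). A ratio within a library does not depend on how that library was scaled.

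**Figure D2:**
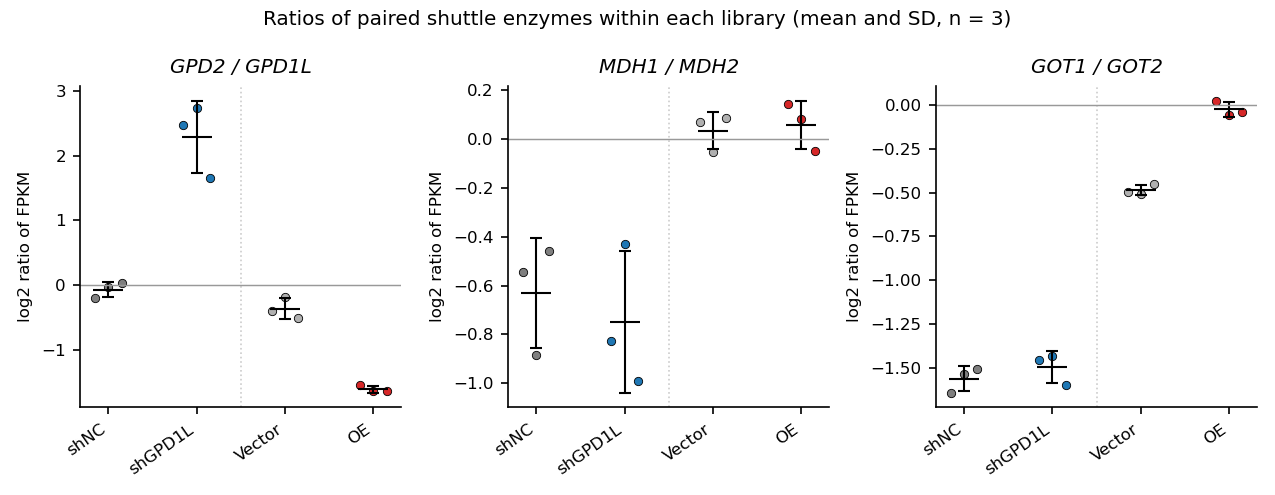
Log2 ratio of FPKM of the enzymes of each pair (vertical axes, with different ranges) within each library, by group; bars are means and whiskers SDs of 3 libraries. GOT1 to GOT2 separates OE from Vector and overlaps between shGPD1L and shNC, MDH1 to MDH2 overlaps in both, and GPD2 to GPD1L moves with GPD1L.

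The malate dehydrogenases overlapped between Vector and OE. MDH1 was at 97.0, 97.1 and 100.4 FPKM in Vector and at 102.6, 99.4 and 93.1 FPKM in OE, with a log2 change of 0.0015 (95% interval -0.11 to 0.11). MDH2 was at 92.4, 100.7 and 94.4 FPKM in Vector and at 92.8, 93.8 and 96.4 FPKM in OE, with a log2 change of -0.02 (95% interval -0.13 to 0.08). The MDH1 to MDH2 ratio was 1.03 ± 0.0535 in Vector and 1.04 ± 0.0708 in OE (SD, n = 3), and 0.652 ± 0.0974 in shNC and 0.603 ± 0.125 in shGPD1L. Exact two-sided permutation tests gave p = 0.7 for the overexpression and p = 0.8 for the knockdown. With GPD2 to GPD1L and GOT1 to GOT2 this made 3 ratios in each comparison, none of which could reach a p under 0.1.

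GPD2 was at 8.13, 8.97 and 7.80 FPKM in Vector and at 7.61, 7.34 and 7.07 FPKM in OE. The lowest Vector library was just above the highest OE library, and the mean in OE was 0.885 of that in Vector. The log2 change was -0.15 (95% interval -0.31 to 0.0014), and with a limma adjusted p = 0.135 it was not called. The ratio of GPD2 to GPD1L was 0.780 ± 0.0900 in Vector and 0.327 ± 0.0117 in OE (SD, n = 3), which again contains the change of GPD1L. GPD1 was listed at 0.471, 0.494 and 0.409 FPKM in Vector and at 0.286, 0.543 and 0.449 FPKM in OE. These overlapped, and without the filter the log2 change was -0.04 (95% interval -0.24 to 0.17, limma adjusted p = 0.807). GPD1L made up 95.9% ± 0.537 of the summed FPKM of the 2 cytosolic enzymes in Vector and 98.1% ± 0.540 in OE.

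**Figure D3:**
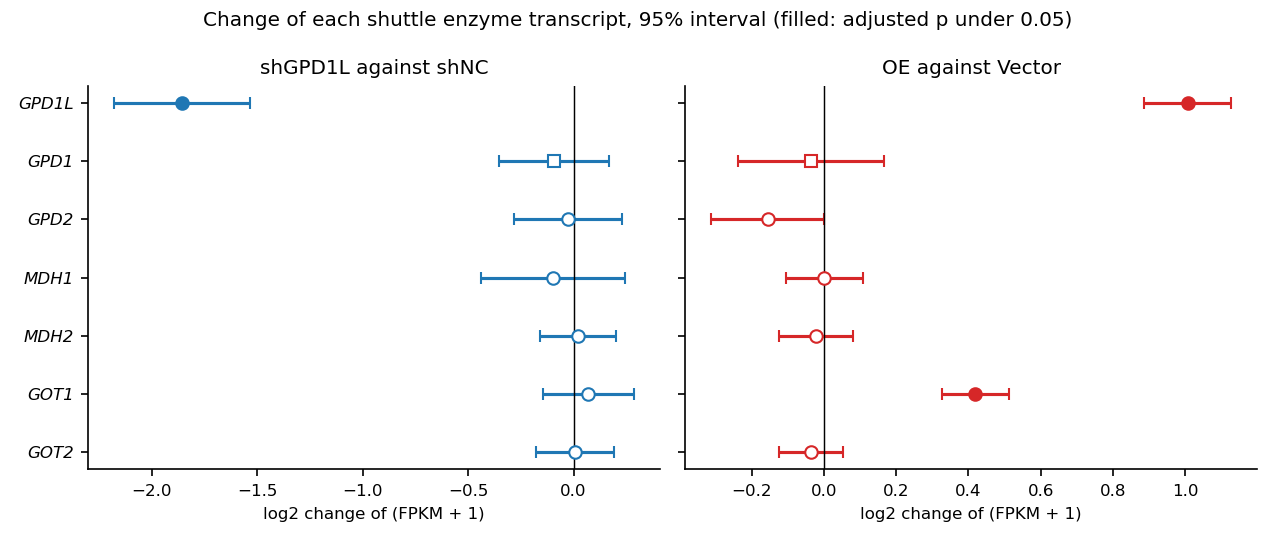
Change of log2(FPKM + 1) with its 95% interval (horizontal axes, with different ranges) for each shuttle enzyme in the knockdown (left) and the overexpression (right); filled symbols are limma adjusted p under 0.05, and GPD1 (squares) is from the fit without the filter on low values. GPD1L is filled on both sides, at -1.85 and 1.01, and GOT1 on the right, at 0.42.

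Whether an enzyme moved differently in the 2 manipulations was tested directly, as the change in OE less the change in shGPD1L over all 12 libraries. The comparisons share no control libraries. GPD1L differed by 2.86 log2 units (limma adjusted p = 2.31e-06), as the manipulation sets. GOT1 differed by 0.35 (SE 0.0998, 95% interval 0.13 to 0.57, limma adjusted p = 0.0385), with a change of 0.07 in the knockdown and 0.42 in the overexpression. GPD2, MDH1, MDH2 and GOT2 differed by -0.13, 0.10, -0.04 and -0.04, and none of these was called. In this test 14.1% of 11385 genes were called and 9.09% were called higher.

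The GOT1 difference was close to the threshold. It kept its call in 10 of 21 alternatives, with adjusted p-values of 0.0125 to 0.107. The call was lost with median-of-ratios scaling (0.29, limma adjusted p = 0.0515), with a block for the replicate number (limma adjusted p = 0.107), and without any 1 library of shNC, Vector or OE (0.0561 to 0.0937). The difference stayed positive throughout, between 0.26 and 0.40.

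A set of 4 gene lists around the shuttles was read beside the enzymes, 60 genes in all, of which 46 were tested in each comparison. The carrier list joined carriers of the malate-aspartate shuttle (SLC25A11, SLC25A12 and SLC25A13) with related transporters outside it, among them SLC25A10 and SLC25A22. The other lists held genes that supply or use glycerol-3-phosphate, genes of malate, oxaloacetate and aspartate metabolism, and genes of cytosolic NADH and NAD supply. In the knockdown limma called none of the 46, and 9 had an unadjusted p under 0.05, where 16.3% of all genes did. The median log2 changes were -0.09 for 5 carriers, -0.07 for 14 glycerol-3-phosphate genes, -0.07 for 16 malate and aspartate genes and -0.06 for 11 NADH genes, beside -0.04 for all genes tested.

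The largest value among the carriers belonged to SLC25A13, the aspartate-glutamate carrier also called citrin, which was picked out after its values were seen. It was at 18.8, 18.1 and 18.8 FPKM in shNC and at 14.1, 14.1 and 9.08 FPKM in shGPD1L. All shGPD1L libraries lay below all shNC libraries, with a log2 change of -0.57 (95% interval -0.93 to -0.21) that was not called (limma adjusted p = 0.157). Libraries did not overlap for 24.7% of all genes tested in the knockdown. SLC25A12, the other aspartate-glutamate carrier, was also lower without overlap and not called (-0.35, limma adjusted p = 0.271). The libraries of SLC25A10, SLC25A11 and SLC25A22 overlapped. Without shGPD1L replicate 3, 5 of the 46 genes were called, all lower: SLC25A13 (-0.37), ALDOC (-0.43), ASNS (-0.38), ME1 (-0.32) and ASS1 (-0.30). That same setting called 608 genes in all, against 72 with the full set of libraries.

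In the overexpression limma called 13 of the 46 genes, 5 higher and 8 lower, a share of 28.3% beside the 22.4% of all genes. The split was 11 higher and 6 lower with equal library totals, 4 and 8 with median-of-ratios scaling, and 8 and 6 with quantile normalization. Of the 5 carriers, 1 was called: SLC25A10, the dicarboxylate carrier that exchanges malate or succinate for phosphate, was lower (-0.42, limma adjusted p = 0.0226). The aspartate-glutamate carriers SLC25A12 and SLC25A13, the oxoglutarate-malate carrier SLC25A11 and the glutamate carrier SLC25A22 had log2 changes of -0.08, -0.06, -0.03 and 0.02, and none was called.

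Of the 14 glycerol-3-phosphate genes, 2 were called higher and 3 lower. The aldolase ALDOA (0.23) and the phosphatidate phosphatase LPIN3 (0.22) were higher. The aldolase ALDOC (-0.39) and PGP, a phosphatase that acts on glycerol-3-phosphate (-0.34), were lower, and so was the triose-phosphate isomerase TPI1 (-0.19). The members of this list therefore did not move one way, and its median was 0.09, beside 0.02 for all genes.

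Of the 16 malate and aspartate genes, 1 was called higher and 3 lower. ASNS, which makes asparagine from aspartate, was at 359.6, 356.4 and 374.5 FPKM in Vector and at 479.3, 463.6 and 447.2 FPKM in OE. Every OE library was above every Vector library, with a log2 change of 0.35 (limma adjusted p = 0.00146). ASS1, which joins aspartate to citrulline on the way to arginine, was at 342.6, 350.9 and 343.4 FPKM in Vector and at 250.3, 254.6 and 252.0 FPKM in OE. It fell in every OE library, with a log2 change of -0.45 (limma adjusted p = 0.000242). The mitochondrial malic enzyme ME3 (-0.34) and the pyruvate carboxylase PC (-0.29), which makes oxaloacetate, were lower too.

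Of the 11 NADH and NAD genes, 2 were called higher and 1 lower. NAMPT, the rate-limiting enzyme of NAD salvage from nicotinamide, was at 41.5, 37.7 and 38.3 FPKM in Vector and at 63.1, 56.6 and 55.2 FPKM in OE. The groups were apart, with a log2 change of 0.56 (limma adjusted p = 0.00116). The mitochondrial NAD kinase NADK2 was higher (0.31) and the lactate dehydrogenase subunit LDHB lower (-0.14). ASNS, NAMPT, ASS1 and ALDOC kept their calls in 15 of 15 alternatives, NADK2 in 13, ALDOA in 12, and SLC25A10, PGP and PC in 10 each. ME3 kept its call in 9 of 14, TPI1 in 7 of 15 (adjusted p up to 0.191), LPIN3 in 5 of 14 (up to 0.115) and LDHB in 5 of 15 (up to 0.581, with changes of -0.17 to -0.03). The count of 13 was 5, 5 and 9 without Vector replicate 1, 2 or 3 and 8, 6 and 8 without OE replicate 1, 2 or 3.

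**Figure D4:**
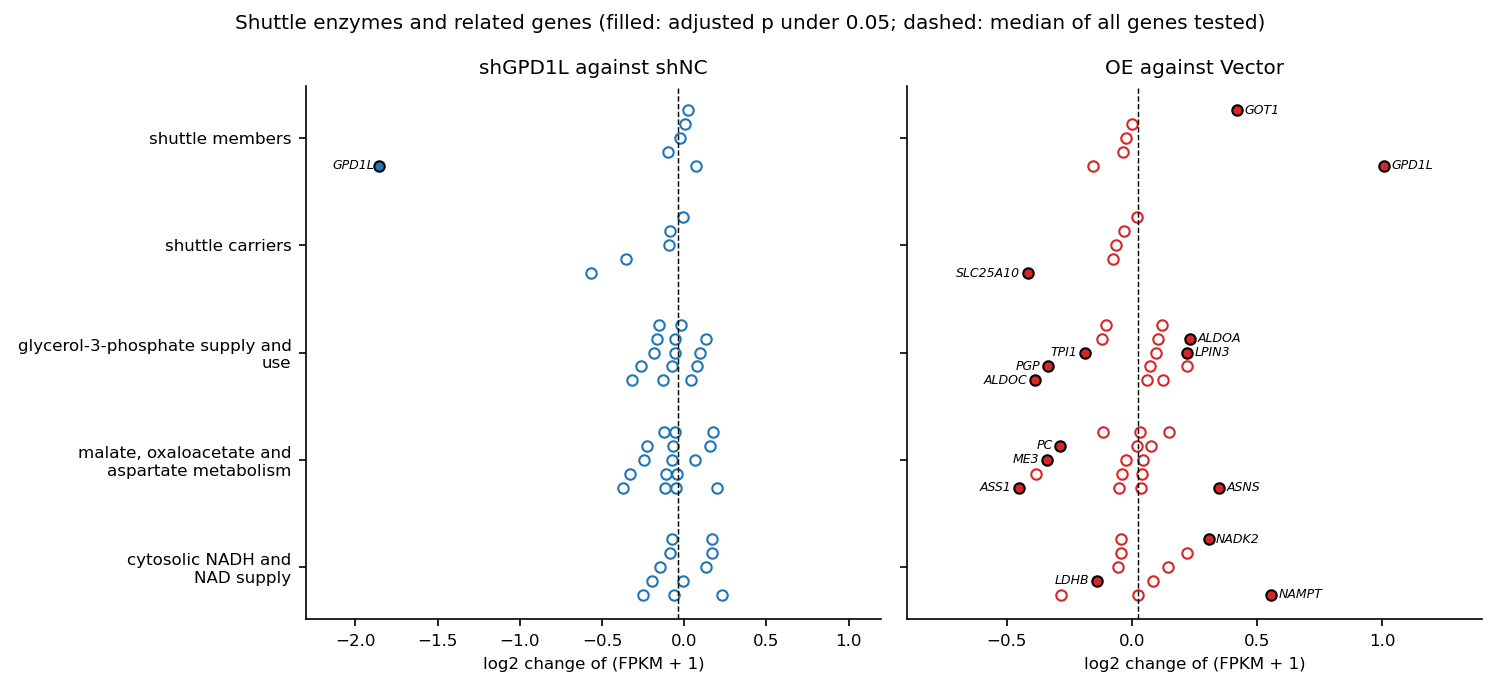
Change of log2(FPKM + 1) (horizontal axes, with different ranges) of the tested shuttle enzymes and of the 46 tested genes of the 4 related lists, in the knockdown (left) and the overexpression (right); each point is a gene, filled where the limma adjusted p was under 0.05, and the dashed line is the median of all genes tested. No listed gene other than GPD1L is filled on the left, and on the right 15 are filled, 7 higher and 8 lower.

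In the test of the difference between the manipulations, 4 of the 46 genes were called, all higher, a share of 8.70% beside 14.1% of all genes. Of all calls in this test 64.6% were higher, against 71.3% with equal library totals and 46.95% with median-of-ratios scaling. NAMPT differed by 0.81 (limma adjusted p = 0.000618) and ASNS by 0.72 (limma adjusted p = 0.000781), and both kept their call in 21 of 21 alternatives. In the knockdown ASNS was at 169.5, 149.5 and 169.1 FPKM in shNC and at 124.3, 125.2 and 125.9 FPKM in shGPD1L, apart but not called (limma adjusted p = 0.0992). NAMPT was at 36.8, 39.1 and 38.9 FPKM in shNC and at 31.0, 32.1 and 32.8 FPKM in shGPD1L. It was also apart, as 24.7% of all genes tested there were, and not called (limma adjusted p = 0.173). The other 2 were AGPS (0.44) and GNPAT (0.36), the peroxisomal enzymes of ether lipid synthesis, of which GNPAT acylates dihydroxyacetone phosphate. AGPS kept its call in 20 of 21 alternatives and GNPAT in 11. GOT1, ASNS and NAMPT were all called higher in the overexpression, as were NADK2, ALDOA, LPIN3 and 12.2% of all genes tested there. In the knockdown the GOT1 change was 0.07, where those of ASNS and NAMPT were -0.37 and -0.25.

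GOT1 and ASNS both rose in OE, and their promoters were read for TGATGNAA, the core of the C/EBP-ATF response element through which ASNS is known to answer amino acid shortage. The motif was chosen after these values were seen. ASNS is a gene this element is known from, so its match was known beforehand and tests nothing. Matches were looked up for the shuttle enzymes and ASNS only, not for the other genes called higher. A shared cause was not tested. In RefSeq's promoter table (GRCh38.p14), 250 bases before each start, it was searched on both strands and found in 1104 of 35116 promoters (3.14%). Of the 6 shuttle enzymes with an entry, GOT1 held it, 198 to 191 bases before its start and on the strand opposite to the gene; ASNS held it 68 to 61 bases before its start. The 30 bases around each are shown on the gene's strand, chr10:99430804-99430833 (minus) for GOT1 and chr7:97872458-97872487 (minus) for ASNS, with the match in capitals.
GOT1: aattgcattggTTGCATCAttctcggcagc
ASNS: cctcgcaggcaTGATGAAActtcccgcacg
In GENCODE 29 the GOT1 window lies inside the gene, chr10:99396870-99431569, so an annotated start lies further upstream. The place of the ASNS window in its gene is not given here. The motif TGACGTCA, searched in the same way, was in 578 promoters (1.65%) and in none of the 6 enzymes. A match describes these letters only; binding was not measured.

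The genes whose pattern over the 12 libraries was most like that of GPD1L were ranked by the root mean square difference of their log2 deviations from the control mean of the same table. Among 11379 genes the nearest 5 were PRSS2 (0.491), PRSS1 (0.511), IL33 (0.531), IGFL2 (0.546) and BEST1 (0.568), where a gene with no change at all would stand at 1.06. PRSS2 and PRSS1 are near-identical trypsinogen genes whose reads are hard to assign to one or the other; they fell by 1.63 and 1.39 log2 units in the knockdown and changed by 0.06 and 0.15 in the overexpression, where neither was called. IL33, an alarmin cytokine, had changes of -0.96 (limma adjusted p = 0.137) and 0.52 (limma adjusted p = 0.00144). IGFL2 had changes of -1.29 (limma adjusted p = 0.00907) and 0.16 (limma adjusted p = 0.0988), and BEST1, a chloride channel, had changes of -1.66 and 0.67 with wide spread and no call in either comparison. For PRSS2, PRSS1 and IGFL2 the likeness thus lies mainly in the fall in the knockdown. The 5 genes were picked by the same values that these p-values are computed from, so the p-values are no support for a likeness.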

How the data were processed

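Poly(A) RNA of 12 SW480 libraries was sequenced. The authors deposited 2 tables of FPKM values, 1 for each comparison; the submitters' processing notes list HISAT2, StringTie, DESeq2 and GRCh38 without roles or versions, and the annotation release is not given in the sources used here. Low FPKM values did not share a common step (at most 1.4% of genes on 1 ratio), so depth is unknown and no count test was run. Libraries were grouped by title, since the genotype field alters the gene name from replicate to replicate. FPKM values were transformed to log2(FPKM + 1), a scale that understates changes of low genes. Genes averaging 1 FPKM or more over the libraries fitted were tested by limma 3.58.1 with an intensity trend (R 4.3.3), Benjamini-Hochberg adjusted over all genes tested and called at adjusted p under 0.05. Within-library ratios of FPKM were compared by exact permutation tests.

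The members and gene lists were chosen with earlier results of these data known. Named were all members, up to 2 rising and 2 falling called genes per list and comparison, and the 5 genes most like GPD1L. TPI1, PC, SLC25A13, the knockdown values of SLC25A12 and the genes called without shGPD1L replicate 3 were added after their values were seen. Alternatives were other pseudocounts, filters and scalings, limma without trend, a replicate block, and leaving out each library. The median log2 change of all genes reached at most 0.0837 under any scaling (difference of effects, equal library totals; 0.0558 with the values as deposited). On simulated data, 35 of 100 genes changed by 0.5 log2 units and 86 of 100 changed by 1 were recovered in the knockdown (12156 genes), and 84 and 98 in the overexpression (12208 genes). The simulation gave each gene independent noise and changed 200 genes, none of them at the lowest levels. It held no library-wide deviation such as that of shGPD1L replicate 3. These rates are therefore not the power of the real comparisons. Coordinates and transcripts are from GENCODE 29 and promoters from RefSeq.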

Additional observations from a re-analysis of the deposited data

Results flagged for a closer look

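The difference between the manipulations, tested over all 12 libraries with limma, passed the threshold for 2 of 6 shuttle enzymes. It passed for 14.1% of all 11385 genes tested. GPD1L differed by 2.86 log2 units between the overexpression and the knockdown, which is the manipulation itself. GOT1 differed by 0.35 log2 units, with 3 of 3 OE libraries above every Vector library and the shGPD1L libraries on both sides of the shNC range. Libraries of OE and Vector did not overlap for 41.8% of all genes tested there. The GOT1 call on the difference held in 10 of 21 alternatives, with limma adjusted p-values of up to 0.107.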

How the results depend on the processing

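Depth is unknown, so no counting error could be given, and 3 libraries a group limit every test. In the knockdown the count of shuttle enzymes called was 0 to 1, and of related genes called 0 to 5, when 1 library was left out. Over all genes the knockdown gave 72 calls, against 25 with quantile normalization, 49 with median-of-ratios scaling, 3 with a replicate block and 0 to 608 with 1 library left out. In the overexpression 2 shuttle enzymes were called in each of 15 alternatives; the 13 related genes became 8 with the replicate block and 5 to 9 with 1 library left out. For the difference of effects 2 shuttle enzymes were called, 1 with median-of-ratios scaling, 1 with the replicate block (GOT1 lost, adjusted p = 0.107) and 1 to 2 with 1 library left out. Over all genes it gave 1601 calls, against 474 with the block and 796 to 2593 with 1 library left out; the overexpression gave 2740, against 1540 to 1982. Signs turned, never with a call, for GPD2 in the knockdown (0.0053 with median-of-ratios scaling, 0.013 with quantile normalization), and in the overexpression for MDH1 (-0.024 with median-of-ratios scaling), MDH2 (0.029 with equal library totals) and GOT2 (0.015 with equal library totals). With 1 library left out the ranges crossing 0 were, in the knockdown, GPD2 -0.081 to 0.054, MDH1 -0.23 to 0.034, MDH2 -0.018 to 0.048 and GOT2 -0.025 to 0.054; in the overexpression, MDH1 -0.029 to 0.040 and MDH2 -0.048 to 0.014; and in the difference, MDH1 -0.032 to 0.23. The log2 difference of the MDH1 to MDH2 ratio crossed 0 as well, at -0.280 to 0.0021 in the knockdown and -0.020 to 0.078 in the overexpression. Libraries with the same replicate number did not deviate together (correlations of -0.18 to -0.0155 in the knockdown and -0.0607 to 0.0222 in the overexpression). These deviations are from means of 3 libraries, so they cannot settle whether the numbers mark a shared culture or day. Why the values above moved between settings was not tested.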
